A study of Mus musculus with 22 samples.

Results

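The constitutive proteasome subunits are described here as 31 genes in mouse esophageal epithelium, chosen by name from the 17541 genes in the count files. They are 7 alpha ring genes (Psma1 to Psma7), 7 beta ring genes (Psmb1 to Psmb7), 6 ATPase genes (Psmc1 to Psmc6), 3 further genes of the base (Psmd1, Psmd2, Psmd4) and 8 lid genes (Psmd3, Psmd6, Psmd7, Psmd8, Psmd11, Psmd12, Psmd13, Psmd14). All 31 were listed in the files and had UMIs in control cells. The mice were C57BL6. The 6 controls were untreated, 3 of them aged 3 to 4 months and 3 aged 18 to 20 months. Experimental eosinophilic esophagitis (EoE) was induced in 4 mice over 32 days with MC903 (10 µM) and ovalbumin (OVA) on the ears followed by OVA by mouth, and 2 of these mice were aged 6 to 8 weeks and 2 aged 19 to 20 months. Esophageal squamous cell carcinoma (ESCC) was induced in 3 mice aged 8 to 10 months with the carcinogen 4NQO (100 µg/mL in drinking water) for 16 weeks and 8 weeks without it. The labels did not separate tumor cells from other epithelial cells in ESCC mice. The ages of the ESCC mice and of the 2 younger EoE mice were not those of any control mouse.

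The proteasome degrades proteins that carry ubiquitin. Its core particle is a barrel in which outer rings of alpha subunits gate the entry and inner rings of beta subunits face the chamber, where Psmb5, Psmb6 and Psmb7 encode the catalytic subunits with chymotrypsin-like, caspase-like and trypsin-like activity. The regulatory particle caps the barrel. Its base holds a ring of ATPases that unfold substrates and the ubiquitin receptor encoded by Psmd4, and its lid holds the deubiquitinase encoded by Psmd14, which pairs with the product of Psmd7. The subunits are needed in nearly all cells, and their genes are often raised together through the transcription factor encoded by Nfe2l1 when proteasome activity falls short. In interferon-exposed and immune cells, Psmb8, Psmb9 and Psmb10 encode catalytic subunits that replace the constitutive ones.

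The 31 genes lay on 14 chromosomes of GRCm38. The last exon, from which reads of a protocol primed at the poly(A) tail mostly come, had a median length of 348 bases in the principal transcripts and ranged from 72 bases in Psmd1 to 2288 bases in Psma2. Annotated copies that share sequence near the transcript end were found for 5 members, so their counts are uncertain to the extent that reads were split or discarded. Psmb3 had 5 such pseudogenes, Psma5 had 2, Psmb5 and Psmd2 had 1 each, and Psmd1 shared its end with 1 protein coding annotation, Gm21972. None of these copies was listed in the count files. The last exon of Psmb7 (253 bases) overlapped Nek6 on the opposite strand, and no other member's last exon overlapped an exon of another gene. The strand setting of the counting was not given in the sources used here. Nek6 itself had 14 UMIs in control, 0 in EoE and 41 in ESCC cells.

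Promoter sequences, from RefSeq, were matched for 25 of the 31 members. Sequences of 300 bases, from 250 bases before the transcription start, are shown for Psmd12 and Psmd14, which were higher in Krtdap-high, more differentiated control cells, and for Psma3, the member with the largest fold in ESCC, on GRCm38.p6 and read along the plus strand of the gene. Capitals mark matches, on either strand, to TGACNNNGC (the core of the antioxidant response element that NRF1 and NRF2 bind), to CCAAT and to the GC box GGGCGG.
Psmd12, chr11:107479278-107479577: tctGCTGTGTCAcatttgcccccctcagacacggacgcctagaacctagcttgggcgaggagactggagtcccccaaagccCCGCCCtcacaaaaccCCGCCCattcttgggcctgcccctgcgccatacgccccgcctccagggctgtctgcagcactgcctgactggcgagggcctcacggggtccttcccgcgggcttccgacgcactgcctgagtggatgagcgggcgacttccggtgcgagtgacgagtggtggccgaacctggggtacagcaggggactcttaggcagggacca
Psmd14, chr2:61711444-61711743: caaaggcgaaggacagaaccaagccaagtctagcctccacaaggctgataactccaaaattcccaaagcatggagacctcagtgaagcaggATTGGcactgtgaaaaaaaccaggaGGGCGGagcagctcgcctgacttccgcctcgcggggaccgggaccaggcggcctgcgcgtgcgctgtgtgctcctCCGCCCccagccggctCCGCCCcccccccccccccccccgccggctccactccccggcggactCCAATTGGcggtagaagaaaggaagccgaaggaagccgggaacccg
Psma3, chr12:70974373-70974672: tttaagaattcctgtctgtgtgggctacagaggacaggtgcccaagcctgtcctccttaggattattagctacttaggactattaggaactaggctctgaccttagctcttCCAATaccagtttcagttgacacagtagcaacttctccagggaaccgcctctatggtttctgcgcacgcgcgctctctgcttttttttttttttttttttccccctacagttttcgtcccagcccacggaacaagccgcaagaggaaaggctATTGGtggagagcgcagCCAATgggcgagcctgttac
TGACNNNGC was present in 4 of the 27 member windows (14.8%), those of Psmb5, Psmb6, Psmc6 and Psmd12, against 12.4% of all 32851 windows of the same length. CCAAT was present in 10 member windows (37.0%, against 37.4% of all windows) and GGGCGG in 15 (55.6%, against 35.7%). A match describes letters in the window and not binding.

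The method was inDrop, which captures cells in droplets and tags each transcript with a unique molecular identifier (UMI). Mice were the replicates, and the libraries of a mouse (2 in controls and ESCC, 1 in EoE) were pooled. Cells within the study's limits of 250 to 3500 genes and 100 to 9500 UMIs that were not called non-epithelial numbered 1493 in control, 143 in EoE and 1472 in ESCC, of 1500 deposited cells each. UMIs per mouse were 111043 to 427752 for control, 6245 to 41909 for EoE and 1240388 to 2103543 for ESCC mice, and the median cell held 990, 519 and 3109 UMIs. EoE mouse 11 held 11 of these EoE cells, in which 1 UMI was worth 160 CPM, or 102 CPM with TMM scaling (by a trimmed mean of ratios between libraries), and the median over all deposited EoE cells was 138 UMIs. Values over all deposited cells are therefore given beside the EoE results. Of the 4218 distinct barcodes, 280 were found in more than 1 library, 239 of them in both libraries of a mouse and none with the same counts. Stages were assigned from control clusters by Krt5, the keratin of basal cells, and Krtdap, a gene of differentiating keratinocytes, with the members left out of the clustering. The study calls such cells basal, suprabasal and superficial. Here they are called Krt5-high, intermediate and Krtdap-high, because at most 3 of the 10 leading genes of a cluster were markers of those names. Krtdap-high cells were 514 of the control, 91 of the EoE and 204 of the ESCC cells. All 7 basal and 8 superficial markers were detected in each group, at unlike levels. The basal markers summed to 11591 to 18417 CPM in control mice, 1601 to 2882 in EoE mice and 17782 to 28183 in ESCC mice. The superficial markers summed to 28926 to 60424 CPM in control mice, 115035 to 179023 in EoE mice and 6559 to 16504 in ESCC mice. The part of either marker set in the differences between conditions was not tested. Comparisons within a stage hold the class of the cells but do not match their marker levels. The labels name no sequencing batch, and a batch, the depth and the condition cannot be told apart.

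The summed UMIs of the 31 members, as CPM (UMIs of the members in 1000000 UMIs of all genes), were highest in ESCC and lowest in EoE, and the ranges of the 3 groups did not overlap. In controls the sum was 4143 at the lowest, 4969 at the median and 5404 at the highest mouse, with a mean of 4839 ± 443 (SD, n = 6). ESCC mice 1, 2 and 3 had 6051, 6024 and 6007 CPM (6028 ± 22.3). EoE mice 9, 10, 11 and 12 had 3767, 3508, 3042 and 2338 CPM (3164 ± 627), from 328 UMIs in all. Every ESCC mouse thus lay above the highest control and every EoE mouse below the lowest control. Over all deposited cells, the EoE mice had 3171, 2943, 2566 and 2530 CPM, again below each control mouse. Without the 5 members that have an annotated copy, the means were 4253 in control, 2487 in EoE and 5122 in ESCC, in the same order. The libraries of a mouse differed by 36.8 to 356 CPM in controls and by 142 to 402 CPM in ESCC, less than the distance from the control mean to the ESCC mean. These sums are shares of a cell's UMIs, so they do not give the amount of proteasome RNA per cell, and they carry no test.

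**Figure D1:**
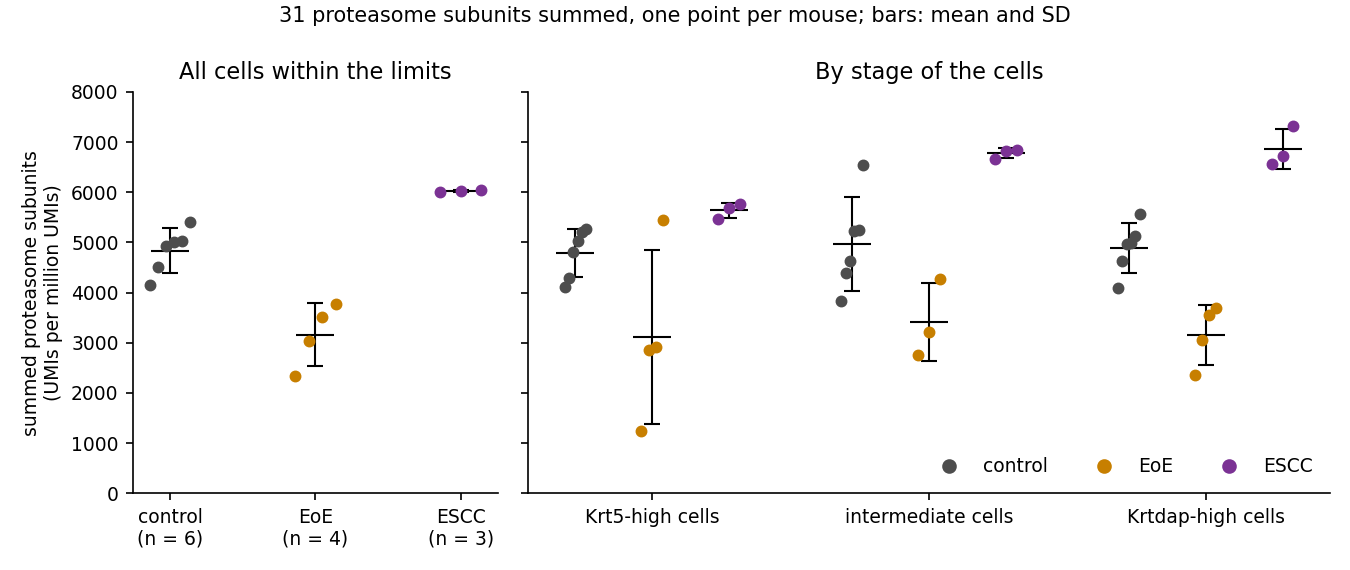
UMIs of the 31 proteasome subunit genes summed per mouse, in CPM, for all cells within the limits (left) and by stage (right). Points are mice and bars are mean and SD, and the 3 ESCC mice sit at 6007 to 6051, above the control mice at 4143 to 5404 and the EoE mice at 2338 to 3767.

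The parts of the particle did not share these differences evenly. The alpha ring genes summed to 1119 ± 105 CPM in control, 1945 ± 26.2 in ESCC and 496 ± 124 in EoE. The beta ring genes summed to 1356 ± 172 in control, 1412 ± 74.8 in ESCC and 583 ± 206 in EoE, so that the ESCC mean lay within the control range. With the TMM scaling that is used for single genes, it lay above each control mouse, at 1644 ± 136 against 1389 ± 144 in control. The ATPase genes summed to 726 ± 55.0 in control, 697 ± 25.1 in ESCC and 495 ± 97.4 in EoE. The order of control and ESCC turned with TMM scaling, to 744 ± 43 in control and 812 ± 52.9 in ESCC. Only for the 3 further base genes was the EoE mean the highest of the groups, at 627 ± 350 CPM against 386 ± 20.3 in control and 545 ± 33.3 in ESCC, with EoE mice ranging from 111 to 879. Over all deposited cells the EoE mean of these genes was 496 ± 132 CPM, below that of ESCC, and with TMM scaling it was 545 ± 332, against 633 ± 24.2 in ESCC. The lid genes summed to 1252 ± 137 in control, 1428 ± 36 in ESCC and 963 ± 225 in EoE. The alpha ring total in ESCC rested in part on Psma3 and Psma5, described next. Without Psma3, Psma5 and Psmb7, a choice made after their values were seen, the total over the other members was 4631 ± 418 in control, 5484 ± 48.5 in ESCC and 2996 ± 615 in EoE.

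In ESCC, 16 of the 31 members rose and 2 fell against control in edgeR's quasi-likelihood test on UMIs summed per mouse, at a Benjamini-Hochberg adjusted p under 0.05 over 5866 genes. Of all genes tested, 17.8% rose and 16.8% fell. The median member had a log2 fold change of 0.50 and the median gene 0.01, and the spread was narrower among the members, with an interquartile range of 0.57 against 0.83. By part, 4 of 7 alpha ring genes rose. Of the beta ring, 4 of 7 rose and 1 fell, and of the ATPases 2 of 6 rose and 1 fell. All 3 further base genes and 3 of 8 lid genes rose. The libraries were scaled by TMM. Scaled by total UMIs alone, 11 members rose and 2 fell, and with DESeq2's size factors the total called was 23. These scalings moved the median gene to -0.17 and 0.12, and the members lay 0.48 or 0.49 above the median gene under each of the 3.

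Psma3 encodes a subunit of the outer ring and is located at chr12:70974621-70996347. Its level, as TMM-scaled CPM, was 20.0 at the lowest, 37.9 at the median and 83.7 at the highest control mouse, and 459, 485 and 539 in ESCC mice 1, 2 and 3. The groups did not overlap, and the log2 fold change was 3.62 ± 0.25 (SE, adjusted p = 1.81e-13 by edgeR). Psma5 (chr3:108256926-108279974), also of the outer ring, was at 9.30, 12.7 and 24.2 CPM in the lowest, median and highest control and at 114, 99.9 and 102 in the ESCC mice. Every ESCC mouse was thus above the highest control for this gene, and its log2 fold change was 2.71 ± 0.26 (adjusted p = 2.8e-09). Psma5 did not pass the filter on low counts among controls alone and entered this test through the ESCC mice, in which it is high. It has 2 pseudogene copies, as given above, whose part was not tested. Psma4 ranged from 77.5 to 149 CPM in control, with a median of 113, and was at 308, 263 and 248 in ESCC (log2 fold change 1.38 ± 0.19, adjusted p = 6.41e-07). Psma1 and Psmd13 also rose, by 1.02 and 1.03 on the log2 scale.

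Of the 3 catalytic subunits, 2 rose and 1 fell in ESCC. Psmb5, which encodes the chymotrypsin-like subunit, ranged from 72.5 to 160 CPM in control with a median of 104, and was at 237, 173 and 176 in the ESCC mice, all above the highest control (0.90 ± 0.21, adjusted p = 0.00151). Psmb6, of the caspase-like subunit, had 140, 185 and 270 CPM in the lowest, median and highest control. In ESCC it had 280, 264 and 263, so that the highest control lay within the ESCC range. Its log2 fold change was 0.59 ± 0.18 (adjusted p = 0.0115), a call lost with total UMIs (0.41), without ESCC mouse 2 (0.58) and without control mouse 4 (0.50).

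Psmb7, of the trypsin-like subunit, went the other way. It is located at chr2:38588036-38644087. Control mice had 74.4 CPM at the lowest, 170 at the median and 213 at the highest, and ESCC mice 52.3, 23.5 and 21.4. No ESCC mouse reached the lowest control, and the log2 fold change was -2.33 ± 0.28 (adjusted p = 1.3e-07). The opposite-strand Nek6 was at 8.04 ± 4.73 CPM in control and 8.93 ± 2.40 in ESCC. Psmc5, an ATPase gene, was the other member that fell, from 176 to 223 CPM in control to 159, 122 and 112 in ESCC (-0.52 ± 0.19, adjusted p = 0.0325). That call was lost with DESeq2's size factors, with DESeq2, without a filter on low counts and on leaving out any of 6 mice (ESCC mice 2 and 3, control mice 1, 4, 5 and 6), with values from -0.55 to -0.40.

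**Figure D2:**
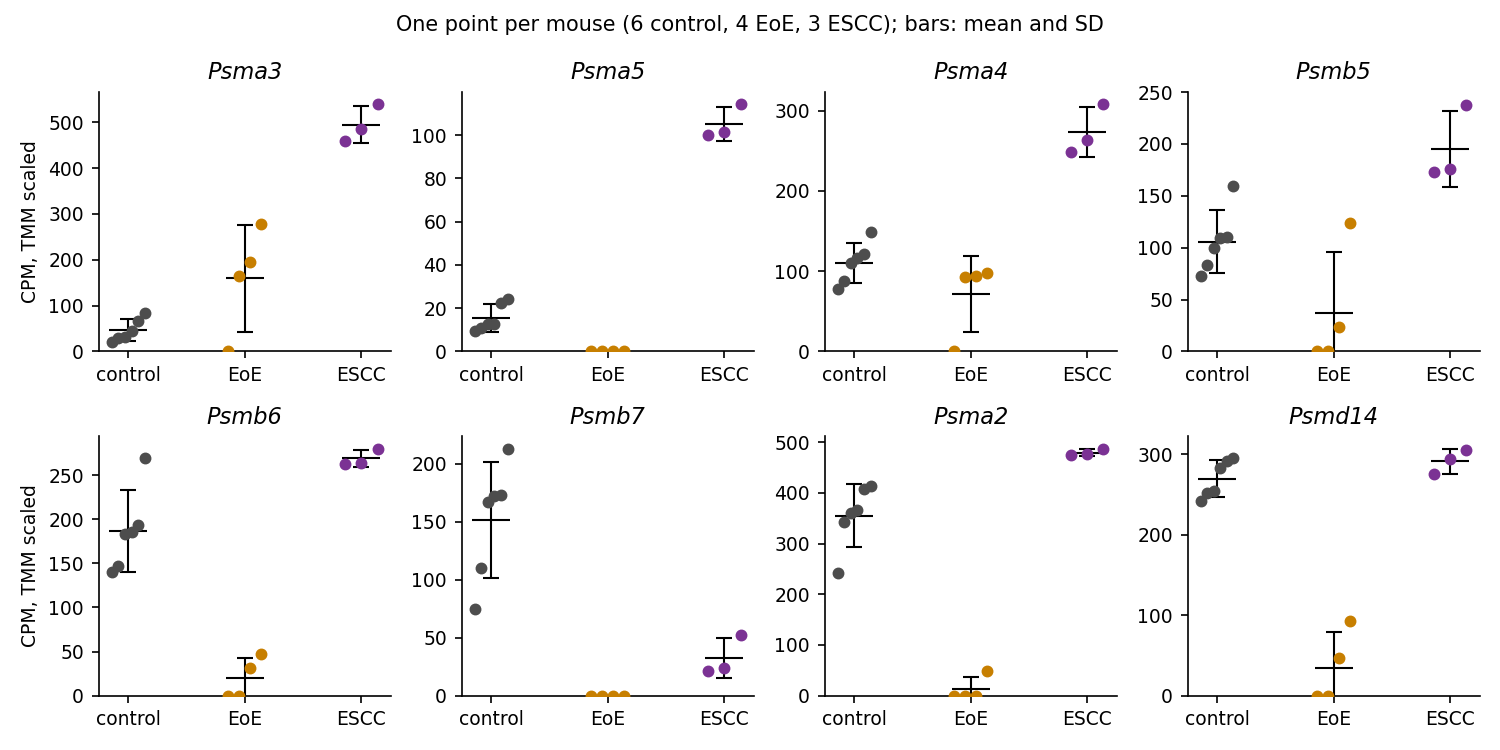
TMM-scaled CPM of 8 subunit genes in each mouse (6 control, 4 EoE, 3 ESCC), with mean and SD. Psma3, Psma5, Psma4 and Psmb5 are higher in each ESCC mouse than in any control, Psmb7 is lower, and Psmb7 and Psma5 have no UMI in the EoE cells within the limits.

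In the base and lid, the ubiquitin receptor gene Psmd4 ranged from 52.5 to 80.3 CPM in control with a median of 58.5, and was at 125, 114 and 88.9 in ESCC (0.81 ± 0.23, adjusted p = 0.00642). The ranges did not overlap. The deubiquitinase gene Psmd14 ranged from 242 to 296 CPM in control and was at 275, 294 and 305 in ESCC, with a log2 fold change of 0.12 ± 0.17 (adjusted p = 0.639). The groups overlapped for this gene. The largest rises elsewhere in the regulatory particle were those of Psmd13, given above, and of Psmc3 (0.85 ± 0.25, adjusted p = 0.00963) and Psmd3 (0.85 ± 0.23, adjusted p = 0.00436).

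In EoE, 10 of the 31 members fell and 1 rose against control, where 25.0% of all 5866 genes fell and 9.48% rose. The median member had a log2 fold change of -0.66, or -0.64 with the 3 members without a UMI in EoE at their bound, and the median gene had -0.75. As a group the members thus lay 0.09 above the median gene, and 0.08 above it with DESeq2's size factors, which moved the median gene to -0.97. Their share called lower, 10 of 31, stood close to the share of all genes. The spread among the members was wide, with an interquartile range of 2.31 against 2.27 for all genes. Over all deposited cells 16 members fell and 3 rose, where 29.3% of 5971 genes fell and 21.4% rose. In Krtdap-high cells alone, 8 members could be tested, of which 3 fell and 0 rose. The share of all genes called in that fit was not recorded, so this count cannot be set against it.

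Among alpha ring genes with a UMI in EoE, Psma2 had the lowest fold and Psma3 the highest. Psma2, an outer ring gene at chr13:14613240-14674236, ranged from 242 to 414 CPM in control with a median of 363, and was at 0, 0, 0 and 48.8 in EoE mice 9, 10, 11 and 12. The 48.8 CPM of mouse 12 is a single UMI, where the control level would give 38.8 UMIs over the EoE group, a ratio of 0.0258 (95% counting interval 0.000652 to 0.144). The fitted log2 fold change was -5.22 ± 0.66 (adjusted p = 3.01e-07). Over all deposited cells Psma2 had 8 UMIs in EoE and a log2 fold change of -3.57 ± 0.33 (adjusted p = 2.09e-09). Psma3 was at 278, 165, 0 and 195 CPM in EoE mice 9, 10, 11 and 12, above the highest control in each mouse but number 11 (2.2 ± 0.48, adjusted p = 0.000832). All 4 EoE mice were above the highest control over all deposited cells, with 350, 179, 260 and 306 CPM against at most 89.0 in control. Psma7 fell from a median of 359 CPM in control to 0, 118, 0 and 0 (-3.01 ± 0.49, adjusted p = 1.88e-05).

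All 7 beta ring genes had a negative fold in EoE and 4 of them passed the threshold. In the same fit the median gene also had a negative log2 fold change, of -0.75, and 25.0% of all genes fell. Psmb7 had no UMI in any EoE mouse, in the cells within the limits or in all deposited cells, where the control level would give 16.8 and 47.1 UMIs. Against a floor of 3 UMIs over the group, which is 28.6 CPM within the limits, it was at least 5.62-fold lower (adjusted p of the edgeR fit 0.00079). Over all deposited cells it was at least 15.7-fold lower (adjusted p of the edgeR fit 1.25e-05). Psmb6 was at 30.9, 47.3, 0 and 0 CPM in mice 9, 10, 11 and 12, below the lowest control in each (3 UMIs, ratio 0.164, 95% counting interval 0.0336 to 0.483, adjusted p of the fit 0.000769). Psmb5 was at 124, 23.6, 0 and 0 CPM, where mouse 9 lay within the control range. Its log2 fold change was -1.17 ± 0.62 (adjusted p = 0.145), against -1.48 ± 0.43 over all deposited cells (adjusted p = 0.00565) and -3.02 without EoE mouse 9, both past the threshold. Psmb1 (-1.72 ± 0.48) and Psmb2 (-1.77 ± 0.53) made up the rest of the beta ring genes that fell.

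Among the regulatory particle genes, Psmd6 and Psmd14 of the lid and Psmc2 and Psmc4 of the ATPase ring fell in EoE. Psmd6 (chr14:14112174-14120984) ranged from 65.1 to 142 CPM in control and had no UMI in EoE cells within the limits, at least 3.94-fold lower than control. Over all deposited cells it had 5 UMIs in 3 EoE mice and a log2 fold change of -2.55 ± 0.52 (adjusted p = 0.00023). Psmd14 (chr2:61711694-61800376) was at 92.7, 47.3, 0 and 0 CPM in EoE mice 9, 10, 11 and 12, below the lowest control at 242 in each (-2.54 ± 0.46, adjusted p = 7.59e-05). Psmd4 was at 216, 94.5, 0 and 0 CPM in those mice, on either side of the control range of 52.5 to 80.3, with a log2 fold change of 0.71 ± 0.52 (adjusted p = 0.296) that became -0.30 without EoE mouse 9. Psmd12 did not pass the threshold in cells within the limits (0.56 ± 0.29) and was higher in EoE over all deposited cells (1.13 ± 0.19, adjusted p = 2.4e-05). Psma5 had no UMI in EoE cells within the limits, but the control level would give 1.67 UMIs there, so a difference was not detectable at this depth.

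**Figure D3:**
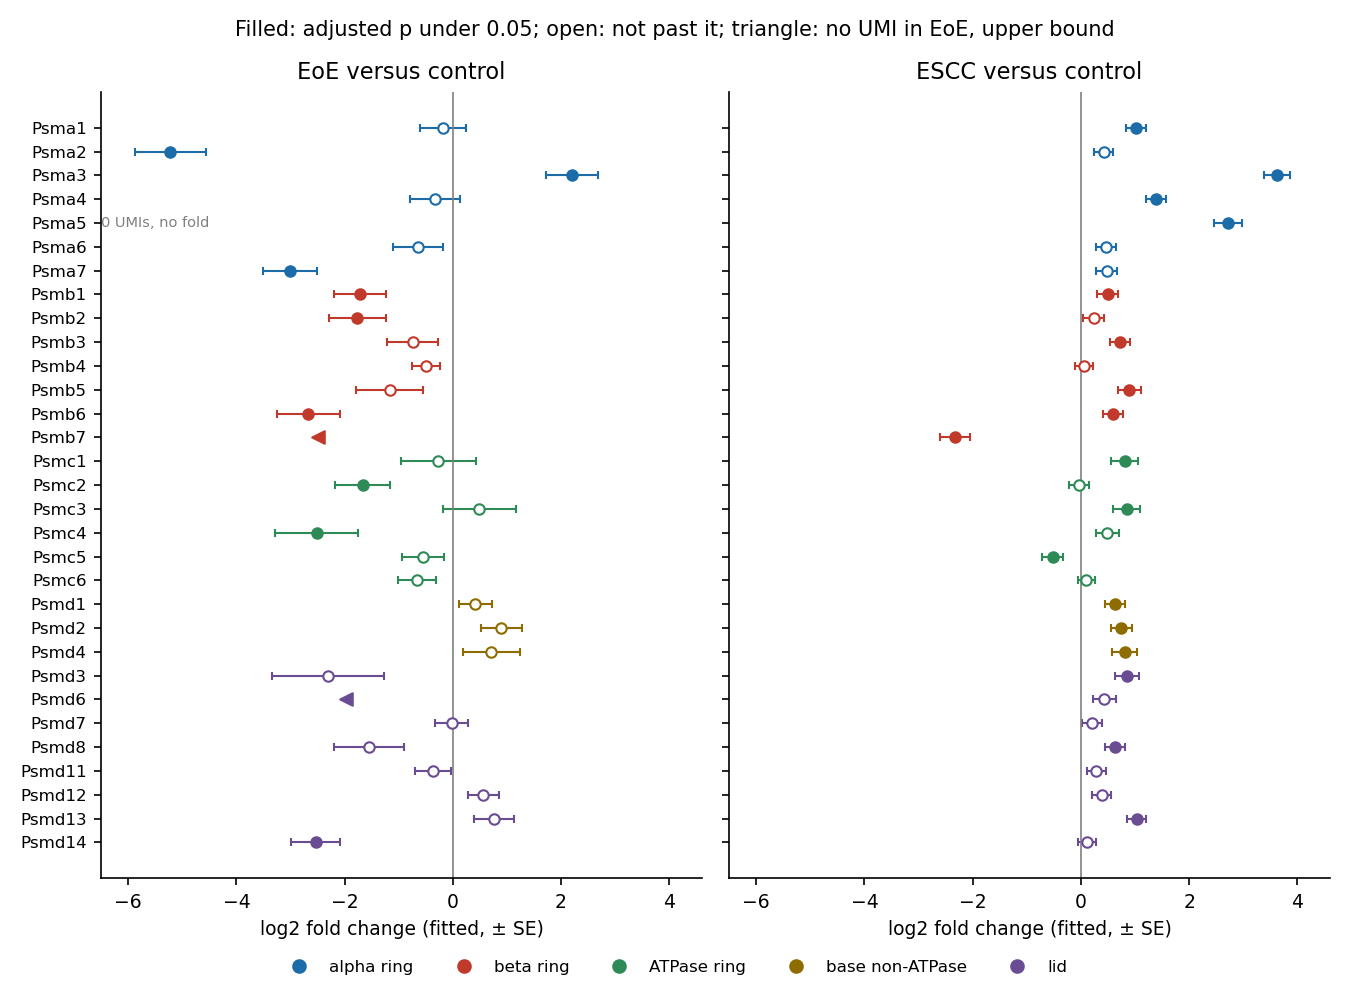
Fitted log2 fold change of each member (± SE) in EoE (left) and ESCC (right) against control, colored by part of the particle. Filled points passed an adjusted p of 0.05, triangles mark Psmb7 and Psmd6 at the bound set by 3 UMIs, and Psma5 has no fold in EoE. The ESCC values cluster around 0.50 with Psma3, Psma5 and Psmb7 far from the rest, whereas the EoE values spread widely.

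Directly compared, 18 of the 31 members were higher in ESCC than in EoE and 0 were lower, where 29.9% of all genes were higher and 11.7% lower. The median member had a log2 fold change of 1.46 and the median gene 0.81. All 7 alpha ring genes and 5 of 7 beta ring genes were higher in ESCC, against 2 of 6 ATPases, 0 of 3 further base genes and 4 of 8 lid genes. Among these, Psma5 had no UMI in EoE cells within the limits and entered the test through the ESCC mice, in which it is high. Psmb6 differed by 3.27 ± 0.55 on the log2 scale (adjusted p = 2.13e-05), Psmb5 by 2.06 ± 0.57 (adjusted p = 0.00482) and Psmd14 by 2.65 ± 0.46 (adjusted p = 3.16e-05). The ubiquitin receptor gene Psmd4 differed by 0.10 ± 0.48 (adjusted p = 0.881). In a fit of the EoE and ESCC mice alone, the filter on low counts left 8 members, of which 5 were higher in ESCC. Of the 881 genes in that fit, 371 were higher in ESCC and 308 lower.

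Along differentiation in controls, most members stayed within a narrow range, with an interquartile range of member log2 fold changes between Krtdap-high and Krt5-high cells of the same mice of 0.30, against 1.22 for all genes. Of the 23 members that passed the filter on low counts, 3 were higher in Krtdap-high cells and 1 was lower, where 28.2% of 2277 genes were higher and 32.3% lower. The 3 were lid genes, and the other 2 lid genes tested, Psmd6 and Psmd11, had positive folds that did not pass the threshold. Psma3, Psma5, Psmc1, Psmc3, Psmd3, Psmd4, Psmd8 and Psmd13 did not pass the filter. The median member was at 0.09 and the median gene at -0.08, and with total UMIs the medians were -0.11 and -0.28, with 0 members called higher and 2 lower. Between intermediate and Krt5-high control cells, 0 of 23 members were called by edgeR or DESeq2 and 0 had an unadjusted p under 0.05, where 19.2% of all genes were called.

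Psmd12, a scaffold gene of the lid at chr11:107479484-107504362, had 106, 135 and 211 CPM in Krt5-high cells of the lowest, median and highest control mouse and 177, 236 and 312 in Krtdap-high cells. It was higher in Krtdap-high cells of 6 of 6 mice (0.61 ± 0.19, adjusted p = 0.00491). Psmd7 ranged from 181 to 226 CPM in Krt5-high and from 207 to 414 in Krtdap-high cells, higher in 5 of 6 mice (0.54 ± 0.17, adjusted p = 0.00515). Psmd14, whose product pairs with that of Psmd7, ranged from 119 to 273 and from 290 to 472 CPM, and its ranges did not overlap (0.45 ± 0.17, adjusted p = 0.0188, higher in 6 of 6 mice). These 3 calls were lost with total UMIs (0.40, 0.34 and 0.25), and that of Psmd14 also without control mouse 3 (0.37). Psmb1 went down, from 169 to 305 CPM in Krt5-high cells with a median of 233 to a median of 161 in Krtdap-high cells, higher in 1 of 6 mice (-0.57 ± 0.20, adjusted p = 0.00911), and lost the call without a filter on low counts (-0.51), with stages set by the Krt5 and Krtdap UMIs of each cell (-0.37), and without control mouse 2, 4 or 6 (-0.46, -0.46 and -0.41). Psmb5 (0.31 ± 0.27), Psmb6 (0.13 ± 0.21) and Psmb7 (-0.43 ± 0.23) did not pass the threshold, although Psmb7 did with total UMIs (-0.64) and without control mouse 5 (-0.54).

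In ESCC, 12 of the 31 members were higher in Krtdap-high than in Krt5-high cells and 0 were lower, where 16.2% of 5532 genes were higher and 17.8% lower. The median member was at 0.39 and the median gene at -0.05. The 12 came from every part of the particle, with 2 alpha ring, 3 beta ring, 2 ATPase, 1 further base and 4 lid genes. Psmd7 was at 168, 245 and 255 CPM in the Krt5-high cells of ESCC mice 1, 2 and 3 and at 477, 417 and 415 in their Krtdap-high cells (0.92 ± 0.16, adjusted p = 4.23e-05). Psmd6 was at 104, 119 and 117 CPM and at 249, 213 and 197 (0.89 ± 0.17, adjusted p = 0.000231). Every mouse thus moved the same way for both genes. Psmb5 rose from 194, 141 and 134 to 287, 259 and 234 CPM (0.70 ± 0.15, adjusted p = 0.000851), and Psmd12 from 184, 212 and 205 to 473, 275 and 360 (0.81 ± 0.16, adjusted p = 0.000236). Without ESCC mouse 3, without the mouse as a block or with total UMIs, 7 members were called in each case. In intermediate against Krt5-high ESCC cells 6 members were higher and 0 lower, where 5.80% of all genes were higher and 5.31% lower.

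**Figure D4:**
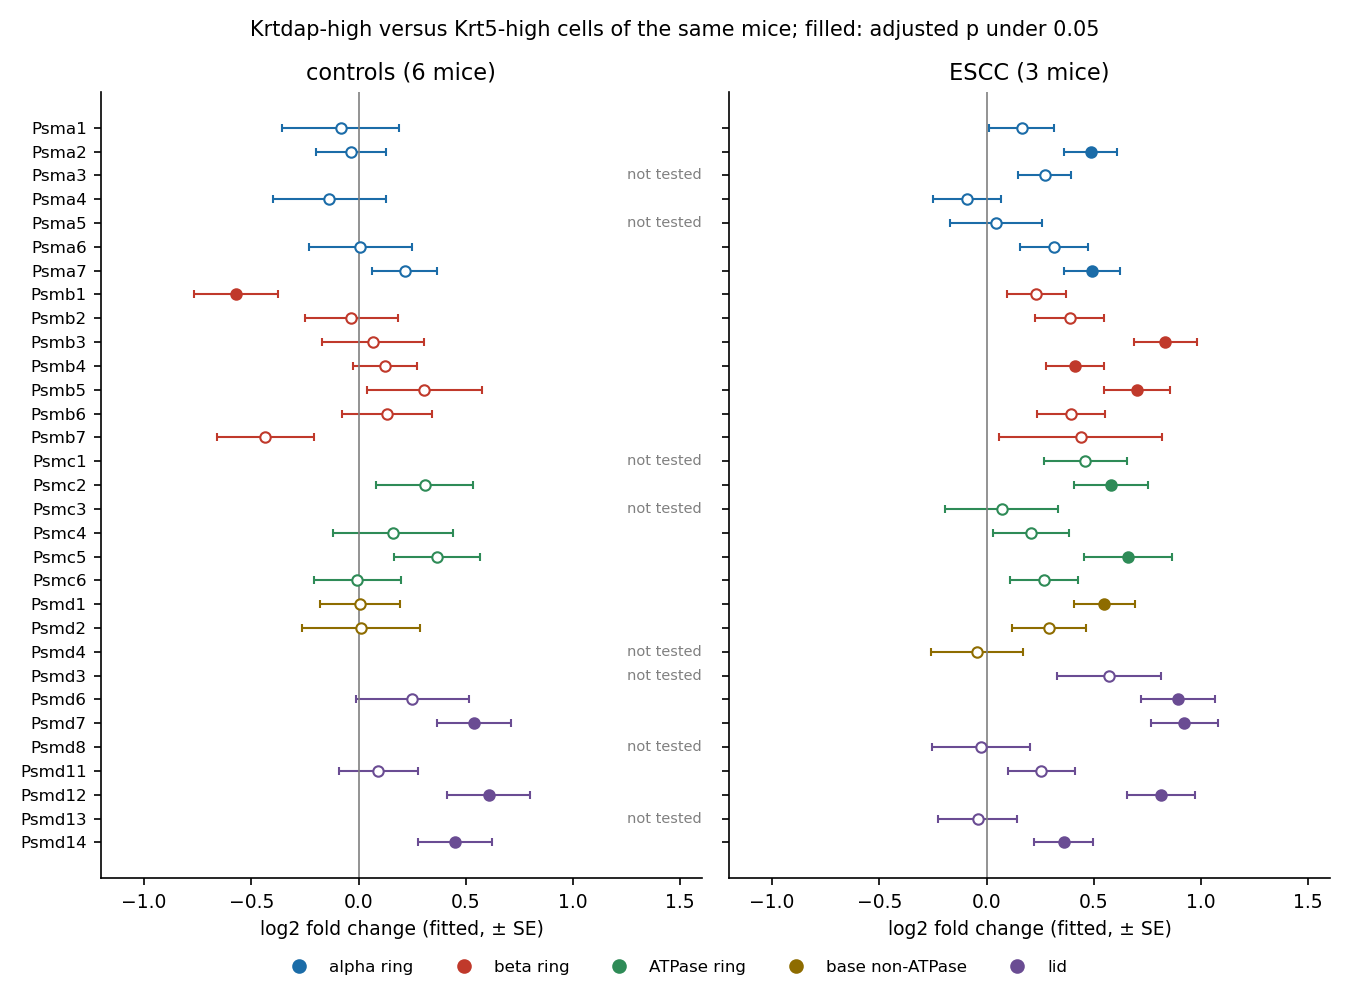
Fitted log2 fold change (± SE) of each member between Krtdap-high and Krt5-high cells of the same mice, in controls (left) and ESCC (right). Filled points passed an adjusted p of 0.05, and the member medians were 0.09 in controls and 0.39 in ESCC.

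The summed members gave the same picture by stage. In ESCC mice 1, 2 and 3 they went from 5476, 5771 and 5679 CPM in Krt5-high cells to 7312, 6565 and 6714 in Krtdap-high cells, a difference of 1222 ± 545 CPM (SD, n = 3), positive in 3 of 3 mice. In controls the difference was 109 ± 572 CPM (n = 6), positive in 2 of 6. No member passed a test of whether the stage effect differed between ESCC and control, with 0 of 30 called by edgeR or DESeq2 and 4 at an unadjusted p under 0.05, where 3.93% of all genes were called. In EoE the cells of a stage were few, so values were pooled over mice. Krt5-high EoE cells held 32 member UMIs (2935 CPM, 95% exact Poisson interval 2007 to 4143), intermediate cells 37 (3612, 2543 to 4978) and Krtdap-high cells 259 (3371, 2973 to 3808). The control values were 4765, 4809 and 4727 CPM, of which the values for the Krt5-high and Krtdap-high cells lay above the EoE interval. These intervals cover counting error only and not the spread between mice. Krt5-high cells of EoE mice 9, 10, 11 and 12 had 5450, 2857, 2924 and 1237 CPM, so mouse 9 lay above the highest control at 5277. Krtdap-high cells of the EoE mice had 2354 to 3689 CPM, below the lowest control at 4091.

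Within a stage, the ESCC difference was present in each, although marker levels were not matched between the ESCC and control cells of a stage. In Krt5-high cells 11 of 30 tested members rose and 2 fell against control, where 15.9% of genes rose and 15.4% fell. In intermediate cells 6 of 14 rose and 1 fell (19.8% and 15.7% of genes), and in Krtdap-high cells 18 of 30 rose and 1 fell (15.3% and 12.1%). The median member was at 0.45, 0.68 and 0.72, and the median gene at -0.03, -0.03 and 0.00. Psma3 rose by 3.78 ± 0.25, 3.30 ± 0.40 and 3.76 ± 0.26 on the log2 scale in the 3 stages, and Psma5 by 2.69 ± 0.34 and 2.55 ± 0.39 in Krt5-high and Krtdap-high cells. Both genes entered these tests through the ESCC mice, in which they are high, and the counts and medians above hold them. In the stage fit of controls alone they did not pass the filter on low counts, nor did Psmc1, Psmc3, Psmd3, Psmd4, Psmd8 and Psmd13. Psmb7 fell by 2.60 ± 0.28, 2.7 ± 0.57 and 1.64 ± 0.37. Psmb5 rose by 0.83 ± 0.25 (adjusted p = 0.0145) in Krt5-high and by 1.23 ± 0.22 (adjusted p = 0.000211) in Krtdap-high cells, and Psmd14 passed the threshold in no stage (0.23 ± 0.19, 0.38 ± 0.27 and 0.08 ± 0.19). The count in Krt5-high cells was 7 with total UMIs and 8 without ESCC mouse 2. In intermediate cells it was 2 with total UMIs or without control mouse 4, 3 without ESCC mouse 2 or 3, and 11 without control mouse 2.

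Age was not associated with a called difference in any member. Between old and young controls (3 mice each), 0 of 30 members were called by edgeR or DESeq2 and 1 had an unadjusted p under 0.05, where 0.0971% of all genes were called. The member log2 fold changes ranged from -0.58 to 0.46. The summed members were at 4931 to 5404 CPM in young and 4143 to 5007 in old controls, which overlapped. For a different EoE effect with age, 0 of 28 members were called by edgeR or DESeq2 and 4 had an unadjusted p under 0.05, where 0.0476% of all genes were called. The young EoE mice had 3508 and 3767 CPM of summed members and the old EoE mice 2338 and 3042. Young meant 6 to 8 weeks in EoE mice and 3 to 4 months in controls, so EoE and age cannot be told apart within that class.

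Across the 31 members, Spearman's rho between last exon length and log2 fold change was 0.20 in EoE and 0.05 in ESCC. Without the 3 members that had no UMI in EoE, whose last exons are 213 to 253 bases long, it was 0.09 in EoE. Across the 5834 tested genes with a matched last exon, rho was 0.25 in EoE and -0.11 in ESCC. These are descriptions across genes, which share their libraries and are not independent. The 14 members with a last exon under 300 bases had a median log2 fold change of -1.72 in EoE with 7 falling, and the 17 others -0.36 with 3 falling and 1 rising. The set of 14 holds the 3 members without a UMI in EoE, whose fitted folds are not measured values. Of all 5866 genes tested, 25.0% fell and 9.48% rose in EoE, and their shares by last exon length were not recorded. In ESCC the medians of these sets were 0.48 and 0.63. The longest last exons belonged to Psma2 (2288 bases) and Psma3 (1997 bases), which moved in opposite directions in EoE. The principal transcript of Psma3 ends beyond its other annotated transcripts, and no exon of another gene overlapped its last exon. The opposite-strand gene 3110056K07Rik, which thus does not overlap that exon, had 12 UMIs in control, 1 in EoE and 34 in ESCC.

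**Figure D5:**
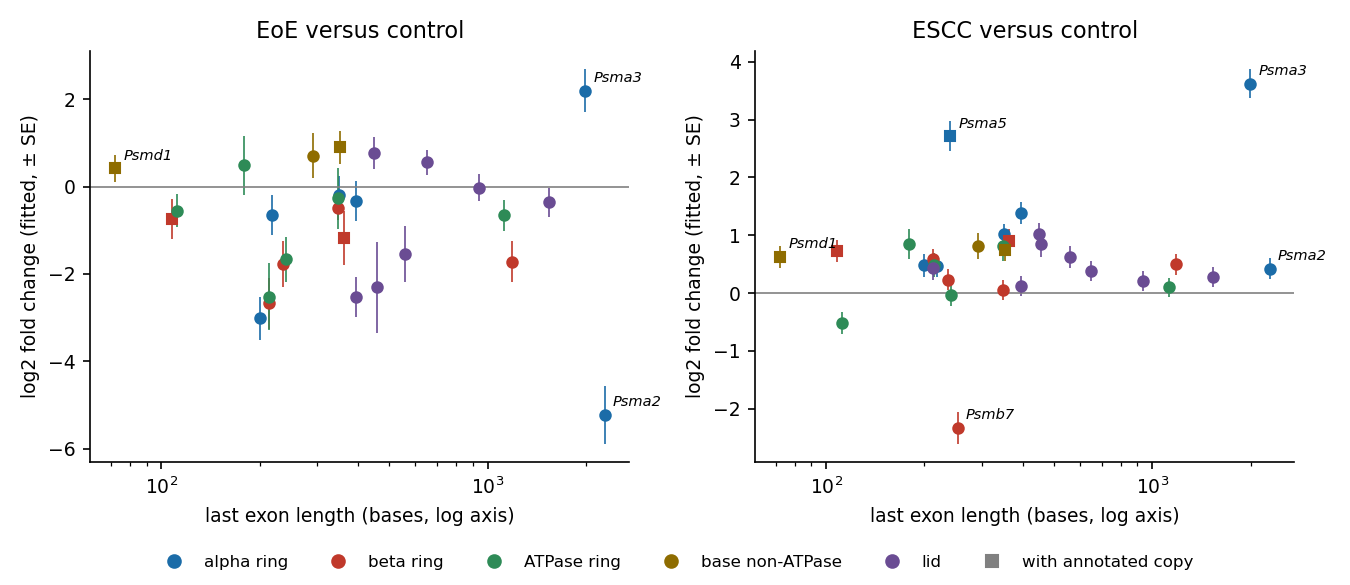
Last exon length (bases, log axis) against the fitted log2 fold change (± SE) of each member in EoE (left, the 28 members with a UMI in EoE) and ESCC (right, 31 members). Squares mark the 5 members with an annotated copy, and Psma2 and Psma3, with the longest last exons, lie apart in EoE, one fallen and the other risen.

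The other genes of the pathway differed by group. Of the immunoproteasome genes, Psmb10 rose in ESCC (1.36 ± 0.28, adjusted p = 0.000312), from 39 UMIs in control and 255 in ESCC. It did not pass the filter on low counts among controls alone and entered the test through the ESCC mice. Psmb8 and Psmb9 had 2 and 7 UMIs in control, 0 and 0 in EoE and 244 and 120 in ESCC cells, and did not pass the filter. Of 5 activator and inhibitor genes, 2 rose in ESCC, the interferon-inducible activators Psme1 (1.55 ± 0.24, adjusted p = 8.31e-06) and Psme2 (2.98 ± 0.25, adjusted p = 2.64e-11), the latter with the annotated copy Psme2b. Neither passed the threshold in EoE (-2.26 ± 1.15 and -0.73 ± 0.99), nor did Psmb10 (-1.29 ± 1.20), and Psme3, of another activator, fell there (-1.56 ± 0.60). Immune markers summed to 107 to 187 CPM in ESCC mice, 0 to 29.5 in control and 0 in EoE, with 15 of 15 listed markers detected in ESCC and 4 in control, and their part in these values was not tested. Psmb8 was lower in Krtdap-high than Krt5-high ESCC cells (-1.69 ± 0.44, adjusted p = 0.00415).

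Of the 9 assembly chaperone genes 3 were tested, and Pomp, needed to mature the core particle (0.78 ± 0.19, adjusted p = 0.00211), and Psmd5, a chaperone of the base (0.60 ± 0.21), rose in ESCC, while Psmg2 fell in EoE (-2.54 ± 0.94). Pomp also rose from Krt5-high to Krtdap-high cells in ESCC (0.54 ± 0.13, adjusted p = 0.00143), as did Nfe2l1 (0.67 ± 0.23), Nfe2l2 (0.36 ± 0.11), Psmg3 (1.08 ± 0.34), Sem1 (0.36 ± 0.12) and Ubqln1 (0.61 ± 0.20). In EoE against control Pomp was at -0.19 ± 0.36. Between conditions, Nfe2l1 did not pass the threshold in ESCC (-0.04 ± 0.22) or EoE (-0.53 ± 0.58), nor did Nfe2l2 (-0.31 ± 0.19 and -0.41 ± 0.23). Of the other regulators, Ddi2, the protease that activates the Nfe2l1 product, was higher in EoE (0.88 ± 0.31), and Ngly1, which removes its sugars, was lower in ESCC (-0.72 ± 0.24). The last exon of Ddi2 overlaps Rsc1a1 on the same strand, and the part of that overlap in the Ddi2 value was not tested. Of the receptors and deubiquitinases at the particle, Sem1, a small lid protein (-3.08 ± 0.38, adjusted p = 2.08e-07), and Rad23b (-1.19 ± 0.46) fell in EoE. In ESCC Adrm1 (1.76 ± 0.36) and Rad23b (0.71 ± 0.19) rose, and Adrm1, like Rps27a below, did not pass the filter among controls alone. In control Krtdap-high cells, Psme3, Psme4 and Ubqln1 were higher than in Krt5-high cells (0.62 ± 0.23, 0.60 ± 0.23 and 0.88 ± 0.23).

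Of the ubiquitin genes, Ubb (3.36 ± 0.22) and Rps27a (8.00 ± 0.30) rose in ESCC on the log2 scale, and Rps27a rose in EoE (2.86 ± 0.53). Rps27a had 36 UMIs in control, 17 in EoE and 23923 in ESCC cells and has 13 annotated copies, and Ubb has 3, so reads of these genes are uncertain in all groups. Vcp, the segregase that extracts ubiquitinated proteins, rose in EoE (1.83 ± 0.25, adjusted p = 1.14e-06) and ESCC (1.59 ± 0.17, adjusted p = 6.45e-09), with 125 to 158 CPM in control, 342 to 713 in EoE and 379 to 441 in ESCC mice. Its cofactor gene Nsfl1c rose in ESCC (0.86 ± 0.20).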

How the data were processed

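The authors extracted barcodes with UMI-tools 1.0.0, aligned reads with STAR 2.7.3 to GRCm38 (GENCODE M23), assigned them with featureCounts and drew 1500 cells per condition. The deposited values are UMI counts per gene and cell, without normalization. Cells within the stated limits were used, except those called non-epithelial by markers (at least 3 UMIs and more than of epithelial markers). Control cells were clustered in scanpy 1.11.5 without the proteasome genes, clusters were classed by Krt5 and Krtdap with a strip of 0.3 (log10), and each cell was given the most frequent class among 15 nearest neighbors, taken from control mice other than its own. Scrublet marked 123 cells, kept except in an alternative. Counts were summed per mouse, or per mouse and stage with the mouse as a block, and fitted in edgeR 4.0.16 (R 4.3.3; TMM, filterByExpr, quasi-likelihood test, adjusted p under 0.05), with all 3 groups in the fit; DESeq2 1.42.0 was an alternative. The procedure was tested on simulated data with 200 changed genes and the same spread between mice for every gene. At a log2 fold change of 2 it recovered 157 in EoE, with 17 false calls, and 200 in ESCC, with 6. At a log2 fold change of 1 it recovered 150 between control stages, with 9 false calls. Gene models and copies (at least 10% of the 31-base words of the last 300 bases shared) came from GENCODE M21. The sums, with no test, used total UMIs. Genes named were Psmb5, Psmb6, Psmb7, Psmd4, Psmd14, up to 3 members per direction with the largest called fold in EoE, ESCC and the control stages, and the listed pathway genes that passed, some of which are not reported here; others were chosen after their values were seen. Members and lists were chosen with earlier results of these data known. The labels give no unit of replication other than the mouse, so p-values measure the spread between mice of a group. In control and EoE that spread includes both age classes, and in EoE also the counting error of few UMIs.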

Additional observations from a re-analysis of the deposited data

Results flagged for a closer look

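Among 30 sets of 4 or 6 mice, 4 held a mouse far from the others of its group by Dixon's test at the 95% level, which chance does in about 1 of 20. Psmd4 in control was at 80.3 CPM in mouse 1, with the next mouse at 62.6 and the lowest at 52.5. Psma2 in EoE was at 48.8 CPM in mouse 12, a single UMI, with the other EoE mice at 0. In EoE mouse 11, whose values rest on 11 cells, Psma4 was at 0 CPM where the others were at 92.7 to 97.7, and Psmd7 was at 0 CPM where the others were at 278 to 293.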

How the results depend on the processing

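Depth limits the EoE results, since 3 UMIs over that group are 28.6 CPM. The count of members called in EoE, 11 as reported, was 19 over all deposited cells and 3 of 8 tested in Krtdap-high cells alone, an alternative added after seeing the data, as were counting shared barcodes once and keeping non-epithelial cells, which left the counts at 11 in EoE and 18 in ESCC. With total UMIs the count fell from 4 to 2 for the stages in controls, from 12 to 7 for the stages in ESCC, from 13 to 7 in Krt5-high cells and from 7 to 2 in intermediate cells, the last rising to 15 without a filter on low counts, which adds members to the test. Without the replicate block 7 members were called for the stages in ESCC, and with the EoE and ESCC mice alone, where fewer members were tested, 5 between these groups. With total UMIs the log2 fold change of Psmd14 in ESCC was -0.062 and that of Psmb6 between control stages -0.063. For changes not explained by fewer cells or genes in the test, the cause was not tested. On leaving out each mouse in turn, the counts ranged from 9 to 12 in EoE, 13 to 20 in ESCC, 16 to 19 between them, 3 to 5 for the stages in controls, 7 to 11 for those in ESCC, 8 to 15 in Krt5-high, 2 to 11 in intermediate and 14 to 19 in Krtdap-high cells, and stayed at 0 for both age comparisons, for the intermediate control cells and for the different stage effect. The log2 fold change of Psmd4 in EoE ranged from -0.30 (without EoE mouse 9) to 1.02, and that of Psmb6 between control stages from -0.037 (without control mouse 1) to 0.42.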
